A study of Mus musculus with 9 samples.

Results

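Viral RNA sensing and interferon-response genes were followed in wild-type (WT) J1 mouse embryonic stem cells (ESCs) and in 2 derived lines during differentiation. The genes were Ifih1, Ddx58, Mavs, Irf3, Irf7, Irf1, Stat2, Isg15 and Adar, chosen by symbol, and all 9 of them were listed among the 15074 genes with a usable symbol in the gene table. 1KO ESCs carry a disruption of both alleles of Dnmt1, the maintenance DNA methyltransferase. 1KO+1CI ESCs are 1KO ESCs with a transgene, driven by the CAG promoter, for a DNMT1 protein whose point mutation removes its catalytic activity. The number in the name of the 1KO+1CI columns presumably marks 1 of the study's clones. Each line was sequenced on day 0, as undifferentiated ESCs grown with LIF on mitomycin C-treated fibroblast feeders, and on days 2 and 4 of differentiation without LIF, started from embryoid bodies that were then plated. Feeders were reduced by a 30 min plating step before differentiation, and the paper states no such step for the day 0 RNA. There was 1 poly(A) RNA-seq library for each line and day, 9 in all, with 20100000 to 27950000 counted reads per library as recovered from the table.

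Cells detect viral RNA through helicases of the RIG-I family. RIG-I, encoded by Ddx58, and MDA5, encoded by Ifih1, bind duplex RNA and signal through the mitochondrial adaptor MAVS to the factors IRF3 and IRF7, which turn on interferon genes. Interferon receptors then act through factors such as STAT2 on interferon-stimulated genes such as Isg15, while ADAR edits duplex RNA and so restrains its detection by MDA5. Transcripts of retrotransposons can form such duplexes, and in several somatic and cancer cell types loss of DNA methylation is known to set off this pathway, whereas undifferentiated ESCs are known for a weak interferon response. The IAPEz-int family, the internal part of an endogenous retrovirus, was therefore set beside the genes in every library.

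The upstream sequences of Isg15, Stat2 and Irf1 are shown because they were the members whose 250 bases before the RefSeq start held a motif read by the interferon pathway. The windows searched, 12 for the 9 genes, are from RefSeq on GRCm38.p6. The interferon-stimulated response element (ISRE) was searched as GAAA, any 2 bases and GAAA, and the gamma-activated site (GAS) as TTCNNNGAA, on both strands. Capitals mark the matches, and each sequence runs 5′ to 3′ on the strand of the gene, chr4:156200819-156201068 (minus strand) for Isg15, chr10:128270248-128270497 (plus strand) for Stat2 and chr11:53769764-53770013 (plus strand) for Irf1.
Isg15 upstream: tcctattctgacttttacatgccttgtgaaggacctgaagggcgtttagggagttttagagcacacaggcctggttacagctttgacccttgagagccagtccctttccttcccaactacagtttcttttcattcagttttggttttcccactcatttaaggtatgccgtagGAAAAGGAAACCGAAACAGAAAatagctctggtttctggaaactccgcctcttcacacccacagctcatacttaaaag
Stat2 upstream: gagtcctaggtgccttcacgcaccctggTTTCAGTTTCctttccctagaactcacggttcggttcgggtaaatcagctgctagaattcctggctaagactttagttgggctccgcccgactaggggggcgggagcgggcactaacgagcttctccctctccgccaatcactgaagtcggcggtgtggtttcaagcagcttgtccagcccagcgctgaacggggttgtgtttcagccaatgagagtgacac
Irf1 upstream: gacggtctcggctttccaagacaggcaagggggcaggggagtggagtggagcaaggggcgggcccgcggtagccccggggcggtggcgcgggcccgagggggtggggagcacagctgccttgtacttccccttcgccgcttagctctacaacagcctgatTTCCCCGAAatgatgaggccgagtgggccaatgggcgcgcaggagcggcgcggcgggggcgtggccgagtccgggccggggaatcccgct
The Isg15 window held 3 overlapping ISRE matches, which begin 78, 72 and 66 bases before the start. The Stat2 window held 1 ISRE match on the opposite strand, 222 bases before the start. The Irf1 window held 1 GAS match, 90 bases before the start. An ISRE match was present in 2.98% and a GAS match in 7.02% of all 32851 windows of this length. A match is a description of the letters and does not show that a factor bound there.

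Dnmt1 itself was measured first as a check of the labels. Its level in FPKM (reads per kilobase of transcript, scaled to the size of the library) was 74.0, 80.4 and 48.5 in WT, 13.7, 17.4 and 12.3 in 1KO, and 315, 129 and 158 in 1KO+1CI cells on days 0, 2 and 4. In an additive fit of line and day over the 9 libraries on log2(FPKM + 1) (limma, all genes), Dnmt1 was lower in 1KO than WT by −2.13 ± 0.27 (SE, adjusted p = 0.0161) and higher in 1KO+1CI than 1KO by 3.61 ± 0.27 (adjusted p = 0.0143). The 3 days of a line stand in for replicates in this fit. A p-value therefore measures whether a line difference was steady over the days, and a line difference that changes from day to day counts as error. Markers of fibroblasts, the cell type of the feeders, moved with line and day. Of 12 fixed markers, 11 were listed, in a gene table that holds no value of 0. Their summed FPKM was 134, 21.3 and 20.7 in WT, 317, 38.3 and 25.5 in 1KO, and 352, 59.0 and 46.6 in 1KO+1CI cells on days 0, 2 and 4. All 11 passed the test as lower on days 2 and 4 than on day 0, and 1 passed as higher in 1KO and 3 in 1KO+1CI than in WT. The undifferentiated ESC markers, 8 of 8 listed, summed to between 899 and 1738 FPKM, and 3 of 8 blood and macrophage markers were listed, with sums between 3.55 and 33.7 FPKM.

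The sensors differed widely in level. Ifih1 (MDA5), on chromosome 2 from 62595798 to 62646255, minus strand (GRCm38, GENCODE M21), was near the lower limit of detection. Its FPKM was 0.470, 0.049 and 0.122 in WT, 0.540, 0.009 and 0.925 in 1KO, and 0.560, 0.164 and 0.733 in 1KO+1CI cells on days 0, 2 and 4. The values for day 2 rest on about 5, 1 and 16 reads in WT, 1KO and 1KO+1CI cells. On day 4 the libraries of both mutant lines, with about 95 and 67 reads, stood above the WT library with about 12, and their FPKM was 7.56-fold and 5.98-fold that of WT. Over the 3 days the Ifih1 difference from WT was 0.26 ± 0.15 in 1KO (SE, adjusted p = 0.487, limma) and 0.29 ± 0.15 in 1KO+1CI cells (adjusted p = 0.342).

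Ddx58 (RIG-I), on chromosome 4 from 40203773 to 40239828, minus strand, was the higher of the RNA helicase sensors in every library. Its FPKM was 6.92, 6.63 and 2.04 in WT, 8.07, 5.09 and 3.38 in 1KO, and 11.0, 4.51 and 3.40 in 1KO+1CI cells on days 0, 2 and 4. The mutant libraries stood above WT on days 0 and 4 and below it on day 2. The line difference was 0.13 ± 0.22 for 1KO (adjusted p = 0.84, limma) and 0.22 ± 0.22 for 1KO+1CI cells (adjusted p = 0.637), so no steady difference was shown. In contrast, Ddx58 fell from day 0 to day 4, by 1.29 ± 0.22 on the log2 scale (SE, adjusted p = 0.00615), with a lower value in all 3 lines.

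Mavs, the adaptor on which both sensors act, is on chromosome 2 from 131234063 to 131248025, plus strand. Its FPKM was 6.72, 7.44 and 4.76 in WT, 7.31, 5.73 and 5.06 in 1KO, and 7.42, 5.40 and 4.62 in 1KO+1CI cells. The lines overlapped, and the difference from WT over the days was −0.05 ± 0.15 for 1KO and −0.10 ± 0.15 for 1KO+1CI cells, with 95% intervals from −0.39 to 0.29 and from −0.44 to 0.23 (adjusted p = 0.918 and 0.754, limma). Mavs was lower on day 4 than on day 0 by −0.49 ± 0.15 (adjusted p = 0.0461), a call that did not remain without the day 2 libraries (adjusted p = 0.0868).

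Of the factors activated by MAVS, Irf3 was expressed throughout and Irf7 mainly on day 0. Irf3, on chromosome 7 from 44997648 to 45002848, plus strand, had FPKM values of 12.2, 14.4 and 14.8 in WT, 14.1, 16.0 and 15.5 in 1KO, and 8.67, 14.1 and 13.7 in 1KO+1CI cells. The day 0 value of 1KO+1CI cells was the lowest of the 9. The Irf3 difference between 1KO+1CI and 1KO was −0.32 ± 0.13 (SE), the only 1 of the 9 genes with an unadjusted p under 0.05 in that comparison, and it did not pass after adjustment (adjusted p = 1, limma).

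Irf7, on chromosome 7 from 141262706 to 141266481, minus strand, is itself induced by interferon and amplifies the response. Its FPKM was 0.351, 0.046 and 0.0797 in WT, 1.77, 0.0797 and 0.396 in 1KO, and 1.46, 0.193 and 0.139 in 1KO+1CI cells on days 0, 2 and 4. On day 0, where the libraries held about 14, 97 and 69 reads, both mutant lines stood above WT, 5.03-fold in 1KO and 4.17-fold in 1KO+1CI. On days 2 and 4 the WT value rests on about 2 and 3 reads, so no fold is given. The difference over the days was 0.48 ± 0.18 for 1KO (SE, adjusted p = 0.267, limma) and 0.38 ± 0.18 for 1KO+1CI cells (adjusted p = 0.293). Irf7 fell from day 0 by 0.92 ± 0.18 to day 2 (adjusted p = 0.0161) and by 0.81 ± 0.18 to day 4 (adjusted p = 0.0173) on the log2 scale.

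Irf1, a factor induced by interferon-gamma and by other signals, had the highest FPKM of the 9 genes in all libraries but that of WT on day 2, where Irf3 was higher. It lies on chromosome 11 from 53770014 to 53778374, plus strand. Its FPKM was 32.4, 11.9 and 27.7 in WT, 17.6, 29.1 and 63.0 in 1KO, and 22.8, 29.4 and 51.4 in 1KO+1CI cells on days 0, 2 and 4. The order of the lines thus turned round between days. WT was the highest on day 0, by −0.85 for 1KO and −0.49 for 1KO+1CI against WT on the log2 scale, and the lowest on day 2 (1.22 and 1.24) and day 4 (1.16 and 0.87). Such a change of order counts as error in the additive fit, in which Irf1 had the widest standard error of the 9 genes (0.51 ± 0.37 for 1KO and 0.54 ± 0.37 for 1KO+1CI against WT, adjusted p = 0.579 and 0.46, limma). With 1 library per line and day, the turn itself could not be tested.

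Stat2, the interferon receptor's signal transducer, went the other way. It is on chromosome 10 from 128270559 to 128292849, plus strand. Its FPKM was 6.11, 6.07 and 4.38 in WT, 3.42, 3.79 and 4.09 in 1KO, and 4.41, 3.38 and 3.13 in 1KO+1CI cells. WT was the highest on each day, and on day 4 the 1KO value was close to it. The difference over the days was −0.44 ± 0.17 for 1KO and −0.49 ± 0.17 for 1KO+1CI cells (SE), and neither passed after adjustment (adjusted p = 0.269 and 0.154, limma). The Stat2 read counts gave 1KO to WT ratios of 0.56 on day 0 and 0.624 on day 2, and 0.934 on day 4 with an exact 95% binomial interval from 0.811 to 1.07. Such intervals assume that 1 step of the table is 1 read, compare 2 libraries and cover counting error only.

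Isg15, a ubiquitin-like protein and a standard readout of the interferon response, had the largest range of the 9 genes over the libraries. It is on chromosome 4 from 156199424 to 156200818, minus strand, and has the ISRE cluster shown above. Its FPKM was 9.62, 0.218 and 1.89 in WT, 12.7, 0.758 and 5.86 in 1KO, and 9.31, 0.999 and 5.72 in 1KO+1CI cells, from 150, 4 and 30, then 268, 12 and 100, then 168, 16 and 87 reads. In all 3 lines day 0 was the highest and day 2 the lowest. On day 0 the ratio to WT was 1.32 in 1KO (exact 95% interval 1.07 to 1.62) and 0.968 in 1KO+1CI cells (0.773 to 1.22). On day 4 it was 3.10 in 1KO (2.04 to 4.83) and 3.02 in 1KO+1CI cells (1.98 to 4.74), and the mutant lines themselves had a ratio of 0.976 (0.724 to 1.31). On day 2 it was 3.48 (1.05 to 14.8) and 4.58 (1.48 to 18.9), from 4 WT reads.

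Over the 3 days Isg15 differed from WT by 0.71 ± 0.24 (SE) for the 1KO line and by 0.63 ± 0.24 for the 1KO+1CI line, higher than WT in 3 of 3 and 2 of 3 days, and neither difference passed after adjustment over all genes (adjusted p = 0.207 and 0.183, limma). Its change over time did pass. Isg15 fell from day 0 by 2.82 ± 0.24 on the log2 scale to day 2 (adjusted p = 0.00116) and by 1.16 ± 0.24 to day 4 (adjusted p = 0.0115). The fibroblast markers fell over the same days, and in a bulk sample fewer cells of a type and less RNA per cell cannot be told apart. The part of the fibroblast markers in this fall was not tested. From day 2 to day 4, Isg15 had ratios of 8.67 in WT (exact 95% interval 3.06 to 33.9, from 4 reads on day 2), 7.73 in 1KO (4.23 to 15.4) and 5.72 in 1KO+1CI cells (3.32 to 10.4), and the summed fibroblast FPKM had ratios of 0.972, 0.665 and 0.79. The 3 genes whose levels followed Isg15 most closely over the 9 libraries, among 13287 genes searched, were Mgat4b (Pearson r = 0.964), Smad3 (0.96) and Camk1 (0.959). For Irf1 they were Hip1r (0.993), Trpc1 (0.984) and Arhgap18 (0.978). These coefficients are descriptions over 9 libraries that share lines and days.

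Adar, on chromosome 3 from 89715022 to 89753446, plus strand, had the smallest standard error of the 9 genes. Its FPKM was 8.88, 11.3 and 10.4 in WT, 10.4, 12.5 and 11.4 in 1KO, and 10.2, 12.0 and 12.4 in 1KO+1CI cells. Both mutant lines were above WT on each day, by between 0.08 and 0.23 on the log2 scale. The difference over the days was 0.15 ± 0.10 for 1KO and 0.16 ± 0.10 for 1KO+1CI cells (SE, adjusted p = 0.552 and 0.425, limma). Exons of Adar share 1365 bases with Chrnb2 on the opposite strand, and Irf1, Irf3 and Irf7 share 135, 88 and 45 bases with Gm17334, Bcl2l12 and Phrf1. The counting is not stated to use strand, so reads from these stretches could belong to either gene.

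**Figure D1:**
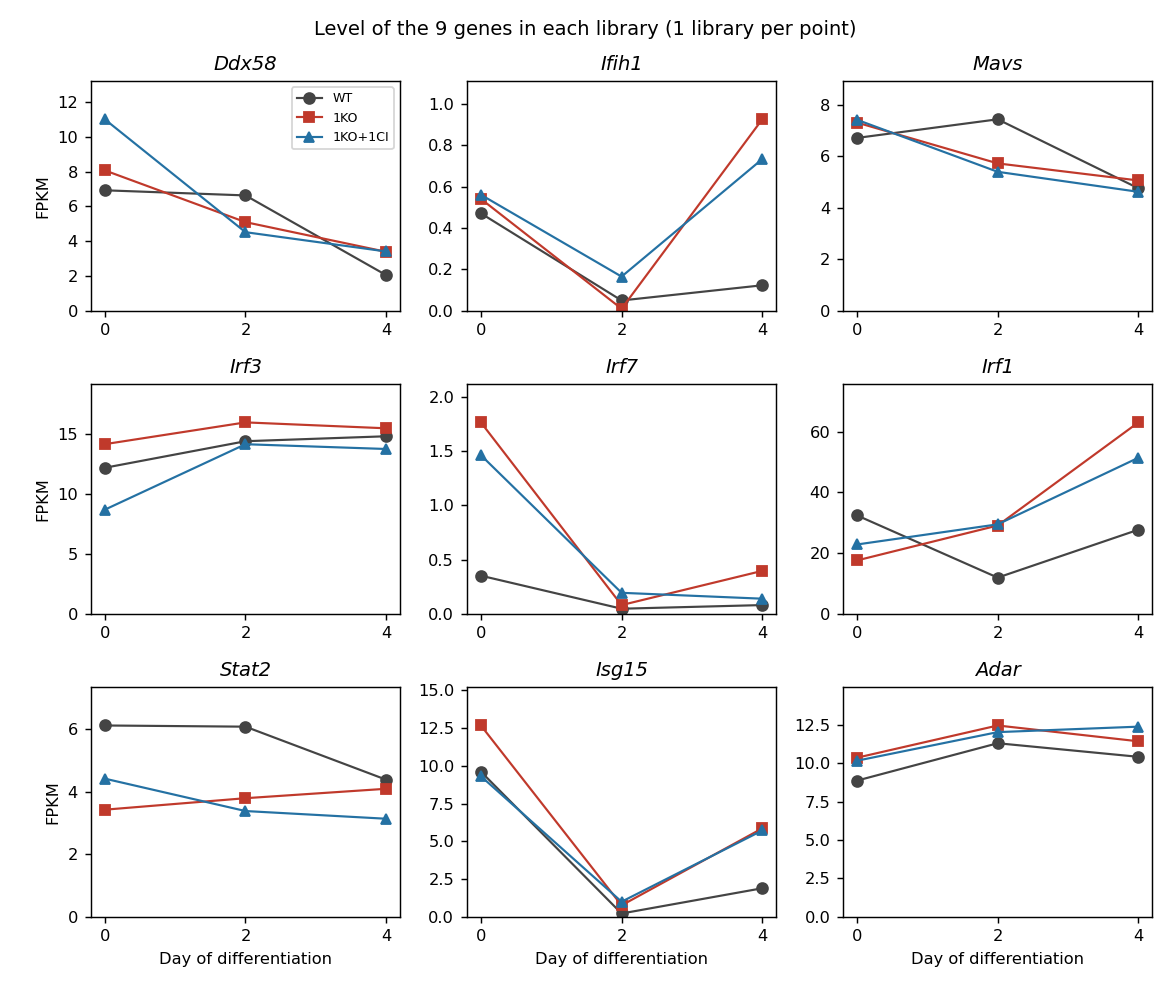
FPKM of each of the 9 genes (vertical axis, from 0) by day of differentiation (horizontal axis), with 1 point per library and a line for WT, 1KO and 1KO+1CI cells. Isg15 and Irf7 were highest on day 0 in each line, and Irf1 had WT as the highest line on day 0 and as the lowest on days 2 and 4.

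Read as a group, the 9 genes showed no line difference that passed the test. In the fit, 0 of 9 were called for 1KO against WT, where 1.86% of all genes were called, 0 of 9 for 1KO+1CI against WT (3.93% of all genes) and 0 of 9 for 1KO+1CI against 1KO (0.00663%, which is Dnmt1 alone). Unadjusted p-values under 0.05 were found for 3 genes (Isg15, Irf7 and Stat2), 2 genes (Isg15 and Stat2) and 1 gene (Irf3). Of all 15074 genes, 2267, 3088 and 564 had such a p-value in the same comparisons. The median coefficient of the 9 genes was 0.15, 0.22 and −0.05 in these comparisons, beside 0.00 for all genes in each. Both comparisons with WT use the same WT libraries and are not independent of each other. With 9 genes and a background of a few percent, a count of 0 does not set them apart from other genes.

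By day and between single libraries, more of them stood above WT on day 4 than earlier. A log2 difference over 0.5 was found on day 0 for 1 higher (Irf7) and 2 lower genes (Irf1 and Stat2) in 1KO, where 10% of all genes were higher and 11.1% lower by as much. On day 2 it was 2 higher (Irf1 and Isg15; all genes 7.09%) and 1 lower (Stat2; all genes 7.18%), and on day 4 it was 4 higher (Ifih1, Ddx58, Irf1 and Isg15; all genes 7.61%) and 0 lower (all genes 5.32%). The same 4 genes were higher on day 4 in 1KO+1CI cells (all genes 10.7%), again with 0 lower (all genes 8.33%). In 1KO+1CI cells on day 0 it was Ddx58 and Irf7 (all genes 9.68%) with 0 lower (12.5%), and on day 2 it was Irf1 and Isg15 (9.21%) with Stat2 lower (7.91%). Between 1KO+1CI and 1KO cells the only difference of this size among the 9 genes was the lower Irf3 on day 0. For all genes the shares in this comparison were 2.43% higher and 3.62% lower on day 0, 2.32% and 1.67% on day 2, and 4.36% and 3.44% on day 4. No test is possible for a single pair of libraries.

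More of these genes were called for time than for line, and the same held over all genes. There, 2328 and 3554 genes were called for days 2 and 4 against day 0, and 281 and 593 for 1KO and 1KO+1CI against WT. Of the 9, 2 were called lower on day 2 than on day 0 (Isg15 and Irf7) and 0 higher, where 8.11% of all genes were called lower and 7.34% higher. On day 4, 4 were called lower than on day 0 (Ddx58, Isg15, Irf7 and Mavs) and 0 higher, where 12.3% of all genes were lower and 11.3% higher. All 11 fibroblast markers were called lower in the same comparisons, and their part in the result was not tested.

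IAPEz-int RNA was above WT in both mutant lines on each day. Its mean FPKM over 426 listed copies was 0.727, 0.792 and 0.563 in WT, 7.14, 4.70 and 17.1 in 1KO, and 2.26, 4.62 and 23.4 in 1KO+1CI cells on days 0, 2 and 4. In 1KO cells the family stood 9.82-fold above WT on day 0, when Isg15 was 1.32-fold and Irf1 0.542-fold WT. On day 2 it stood 5.94-fold above WT, when Isg15 was 3.48-fold and Irf1 2.44-fold WT. On day 4 the family was 30.3-fold WT, with Isg15 at 3.10-fold and Irf1 at 2.28-fold. The ratio of Ddx58 to WT was 1.17, 0.768 and 1.66 on days 0, 2 and 4, and that of Ifih1 was 1.15 on day 0 and 7.56 on day 4, with about 1 read in 1KO cells on day 2. Irf7 stood at 5.03-fold WT on day 0. Thus in 1KO cells Ddx58 had the same order of days as IAPEz-int, with day 4 highest and day 2 lowest. Ifih1 had this order too, from about 1 read on day 2, and Isg15 and Irf1 had their smallest ratio on day 0. In 1KO+1CI cells IAPEz-int stood at 3.10, 5.83 and 41.6 times WT on days 0, 2 and 4. Ddx58 stood at 1.59, 0.681 and 1.67 times WT in that line, so it did not share the order there. Isg15 stood at 0.968, 4.58 and 3.02 times WT, and it and Irf1 had their largest ratio on day 2. Ifih1 did have the order of IAPEz-int, with 0.560, 0.164 and 0.733 FPKM beside 0.470, 0.049 and 0.122 in WT. Its day 2 values rest on about 16 reads and, in WT, 5 reads. Each ratio is from 1 pair of libraries, and no relation was tested.

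The 1KO+1CI line gave a further comparison, since IAPEz-int stood at 0.316 of the 1KO level on day 0. On the same day Isg15 was at 0.735 of the 1KO level (exact 95% interval 0.603 to 0.896), Irf7 at 0.829, Ifih1 at 1.04 and Irf1 at 1.30. Ddx58 was at 1.36 (1.24 to 1.49) and Stat2 at 1.29 (1.13 to 1.47) of the 1KO level. The members' median difference was 0.02 on the log2 scale, while 0 of 426 IAPEz-int copies were higher in 1KO+1CI. These copies come from 1 pair of libraries and are not replicates. The share over all repeat copies was not computed, and how multiply aligned reads were counted is unknown. On day 2 the family's mean FPKM in 1KO+1CI cells was 0.983 of that in 1KO cells and on day 4 it was 1.37 of it, with members' medians of −0.05 and −0.15. The fibroblast sum of 1KO cells stood at 2.36, 1.80 and 1.23 times WT on days 0, 2 and 4, and that of 1KO+1CI cells at 2.62, 2.77 and 2.25 times. On day 4 the Isg15 ratio to WT was 3.10 in 1KO (counting interval 2.04 to 4.83) and 3.02 in 1KO+1CI cells (1.98 to 4.74). Each of these is 1 library against 1 library, and the part of the fibroblast markers in the result was not tested.

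**Figure D2:**
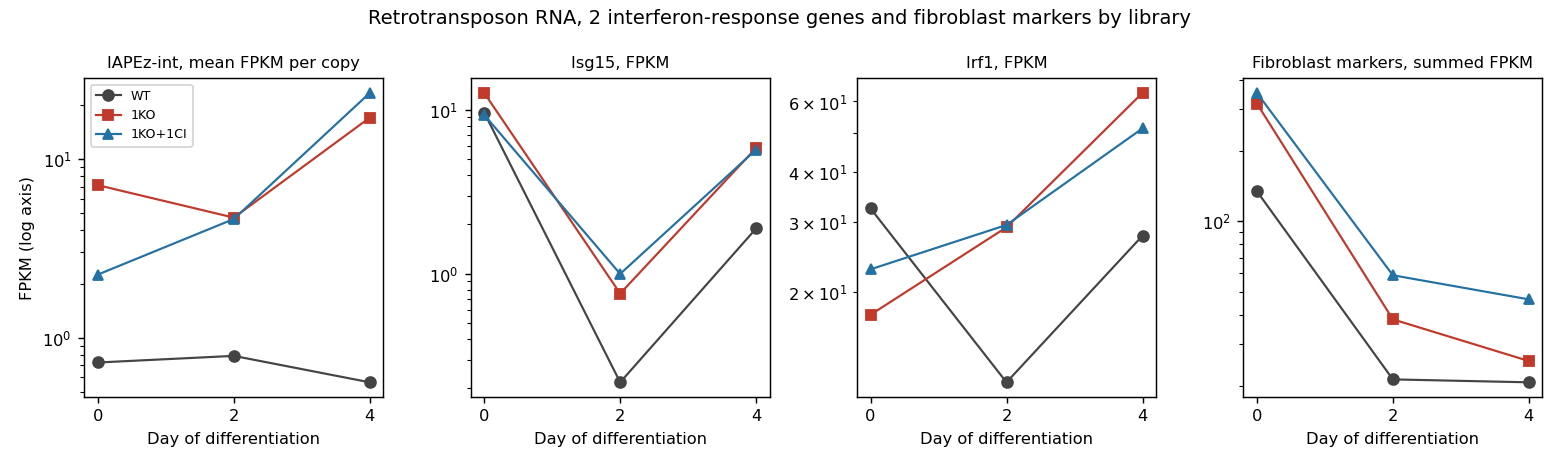
Mean FPKM of IAPEz-int over 426 copies, FPKM of Isg15 and of Irf1, and summed FPKM of 11 fibroblast markers (vertical log axes) by day of differentiation, with 1 point per library and a line for WT, 1KO and 1KO+1CI cells. IAPEz-int was above WT in both mutant lines on each day, whereas Isg15 of the mutant lines was 1.32-fold and 0.968-fold WT on day 0 and stood further above it on days 2 and 4, and the fibroblast markers dropped from day 0 to day 2 in every line.

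The wider pathway gave calls where the 9 genes did not. Of 133 names in 7 pathway lists, 104 were listed in the table, 95 of them besides the 9 genes. The other 29, among them Ifnb1, Ifna4, Ifit1, Mx1 and Usp18, were not analysed here. As the table holds no value of 0, genes without reads in a library may be missing from it. The pathway counts do not cover unlisted genes. In 1KO against WT, 7 of 104 were called higher, where 0.71% of all genes were, and 1 was called lower (all genes 1.15%). In 1KO+1CI against WT it was 9 higher (all genes 1.8%) and 1 lower (all genes 2.14%). Between 1KO+1CI and 1KO it was 0, with 5 genes at an unadjusted p under 0.05, as had 564 of all 15074 genes. The median coefficient over the 104 genes was 0.16 for 1KO and 0.14 for 1KO+1CI against WT. Without the day 0 libraries only Irgm1 was still called in either comparison, and without those of day 2 or of day 4 none was. Such fits have 6 libraries and fewer degrees of freedom. Without a trend in the variance, Zbp1, Ifi35 and Irgm1 kept their calls in 1KO, and H2-D1, Ifitm3 and Lgals3bp lost theirs in 1KO+1CI cells.

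Among the sensors, 2 of 19 were called higher in 1KO. Zbp1, a sensor of Z-form nucleic acids that can start necroptosis, had FPKM values of 2.08, 0.0735 and 0.0665 in WT, 5.34, 1.08 and 1.54 in 1KO, and 7.25, 1.54 and 2.09 in 1KO+1CI cells. Both mutant lines were above WT on all 3 days, by 1.08 ± 0.13 (SE, adjusted p = 0.0146, limma) and 1.40 ± 0.13 (adjusted p = 0.00394). Oas1a, which makes the messenger that activates RNase L, was higher in 1KO by 1.07 ± 0.20 (adjusted p = 0.0446), and in 1KO+1CI cells its difference of 0.50 ± 0.20 did not pass (adjusted p = 0.21). The most abundant gene of this list was Trim25, a ubiquitin ligase that acts on RIG-I, with a mean of 26.5 FPKM over the 9 libraries. Of the 11 adaptors and kinases, 0 were called in either mutant line (1 and 2 at an unadjusted p under 0.05), and Ikbkb, a kinase of the NF-kB pathway, had a difference of −0.44 ± 0.13 in 1KO (adjusted p = 0.154). The list of interferons, receptors and JAK kinases held 9 genes present in the table, all of them receptors or JAK kinases. Of these 9, 0 were called as well (0 and 3 at an unadjusted p under 0.05). Its interferon genes were not listed, so their RNA was not observed. Irf8 and Cyld, named for their low coefficients in 1KO (−0.52 and −0.46), did not pass (adjusted p = 0.255 and 0.378). Of the 13 IRF, STAT and NF-kB factors, Stat3, which carries the LIF signal in ESCs, was called higher in 1KO+1CI cells, by 0.58 ± 0.11 (adjusted p = 0.0339, limma). In 1KO, 0 of the 13 were called (4 at an unadjusted p under 0.05). Of all 15074 genes, 2267 had an unadjusted p under 0.05 in 1KO and 3088 in 1KO+1CI against WT. By mean FPKM the most abundant genes of the other lists were Chuk, Jak1, Irf1, Ifitm2, H2-K1 and Rnaseh2c.

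The effector and antigen presentation genes held most of the calls. Of 31 interferon-stimulated effectors, 3 were called higher for 1KO, 5 for 1KO+1CI and 0 lower for either. Parp12, an ADP-ribosyltransferase with antiviral activity, had FPKM values of 6.78, 1.90 and 3.73 in WT, 12.9, 10.9 and 12.1 in 1KO, and 17.0, 14.7 and 9.58 in 1KO+1CI cells. Every mutant library stood above every WT library, and the differences were 1.45 ± 0.26 (SE, adjusted p = 0.0402, limma) and 1.60 ± 0.26 (adjusted p = 0.0204). Irgm1, an immunity-related GTPase, had FPKM values of 8.74, 4.27 and 13.0 in WT, 13.8, 14.7 and 38.1 in 1KO, and 17.1, 18.8 and 45.5 in 1KO+1CI cells. It was higher by 1.22 ± 0.20 in 1KO (adjusted p = 0.0301) and by 1.51 ± 0.20 in 1KO+1CI cells (adjusted p = 0.0117), and again no mutant library overlapped with WT. Ifi35 was higher by 1.11 ± 0.15 and 1.04 ± 0.15 (adjusted p = 0.0182 and 0.0139). In 1KO+1CI cells Lgals3bp (1.47 ± 0.32, adjusted p = 0.047) and Ifitm3, a membrane protein that blocks virus entry (0.93 ± 0.19, adjusted p = 0.0404), were also called, and Gbp3 was not (1.09 ± 0.42, adjusted p = 0.199).

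Of 10 genes of antigen processing and MHC class I, 2 were called higher in each mutant line. B2m, the light chain of MHC class I, was higher by 0.60 ± 0.11 in 1KO (SE, adjusted p = 0.0465, limma) and by 0.98 ± 0.11 in 1KO+1CI cells (adjusted p = 0.00776). The B2m call in 1KO did not remain under TPM rescaling (adjusted p = 0.0505) or median-ratio scaling (adjusted p = 0.0517). H2-D1, a heavy chain, was higher by 1.00 ± 0.17 and 0.83 ± 0.17 (adjusted p = 0.0374 and 0.0427). H2-K1, the other heavy chain, had FPKM values of 32.0, 8.52 and 45.9 in WT, 36.3, 39.9 and 96.4 in 1KO, and 26.4, 34.9 and 76.8 in 1KO+1CI cells. Its differences of 1.11 ± 0.35 and 0.79 ± 0.35 did not pass (adjusted p = 0.19 and 0.254). H2-D1 and H2-K1 are close in sequence, and how reads matching more than 1 gene were counted is unknown, so their values are uncertain. Of 11 restraining factors, Rnaseh2a, a subunit of the RNase H2 that removes RNA from DNA, was the single gene called, with −0.54 ± 0.10 for 1KO and −0.65 ± 0.10 for 1KO+1CI (adjusted p = 0.0423 and 0.0171). Its FPKM was 68.9, 48.3 and 62.9 in WT and between 33.1 and 49.2 in the 6 mutant libraries.

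**Figure D3:**
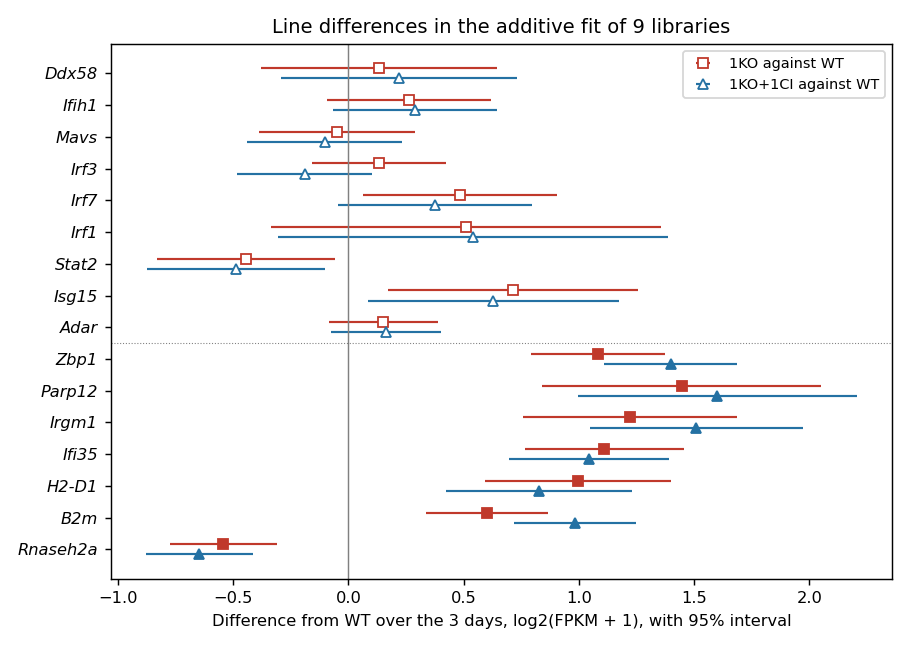
Difference of 1KO (squares) and 1KO+1CI cells (triangles) from WT over the 3 days, on log2(FPKM + 1), with its 95% interval from the additive fit, for the 9 genes (above the dotted line) and 7 genes called in both comparisons (below it). Filled symbols mark an adjusted p under 0.05, which none of the 9 genes reached.

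Over the 7 lists, more pathway genes stood above WT by over 0.5 on days 2 and 4 than on day 0, but not in every list. Of the 104 genes, 21 were higher and 15 lower in 1KO than WT by over 0.5 on day 0, 27 and 5 on day 2, and 37 and 4 on day 4. In 1KO+1CI cells these counts were 20 and 11, 28 and 4, and 36 and 3. The shares of all genes past this difference, given above, were between 5.32% and 12.5%. For the effectors the median difference of 1KO from WT was 0.26, 0.43 and 0.62 on days 0, 2 and 4, and for antigen processing and MHC class I it was −0.17, 0.76 and 0.84. In 1KO+1CI cells these medians were 0.17, 0.28 and 0.60 and −0.28, 0.95 and 0.93. The sensors had another course, with medians of 0.19, 0.13 and 0.26 and 7, 4 and 6 of 19 genes higher by over 0.5 in 1KO, and medians of 0.40, 0.02 and 0.07 with 7, 2 and 4 genes in 1KO+1CI cells. The adaptors and kinases had medians of −0.07, −0.20 and 0.05 in 1KO. The medians of all genes were −0.01, 0.00 and 0.00. On day 4, when the counts of higher genes were largest in both lines, the fibroblast sum stood at 1.23 times WT in 1KO, with 3 of 11 markers higher by over 0.5, and at 2.25 times in 1KO+1CI cells, with 8 of 11. All 11 fibroblast markers were above WT on days 0 and 2 in both lines. Neither their part in these counts nor that of differentiation stage was tested. Whether the difference between days exceeds the spread between cultures could not be tested with 1 library per condition. Over time, more pathway genes were called lower than higher. On day 2 against day 0, 29 of 104 genes were called lower (all genes 8.11%) and 3 higher (all genes 7.34%), and on day 4 against day 0 it was 30 (all genes 12.3%) and 5 (all genes 11.3%). Of the 19 sensors, 13 were called lower on day 4. Of the 10 antigen processing genes 1 was called higher and 0 lower on that day, with a median coefficient of 0.49. All 11 fibroblast markers were called lower on day 4, with a median coefficient of −2.23.

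**Figure D4:**
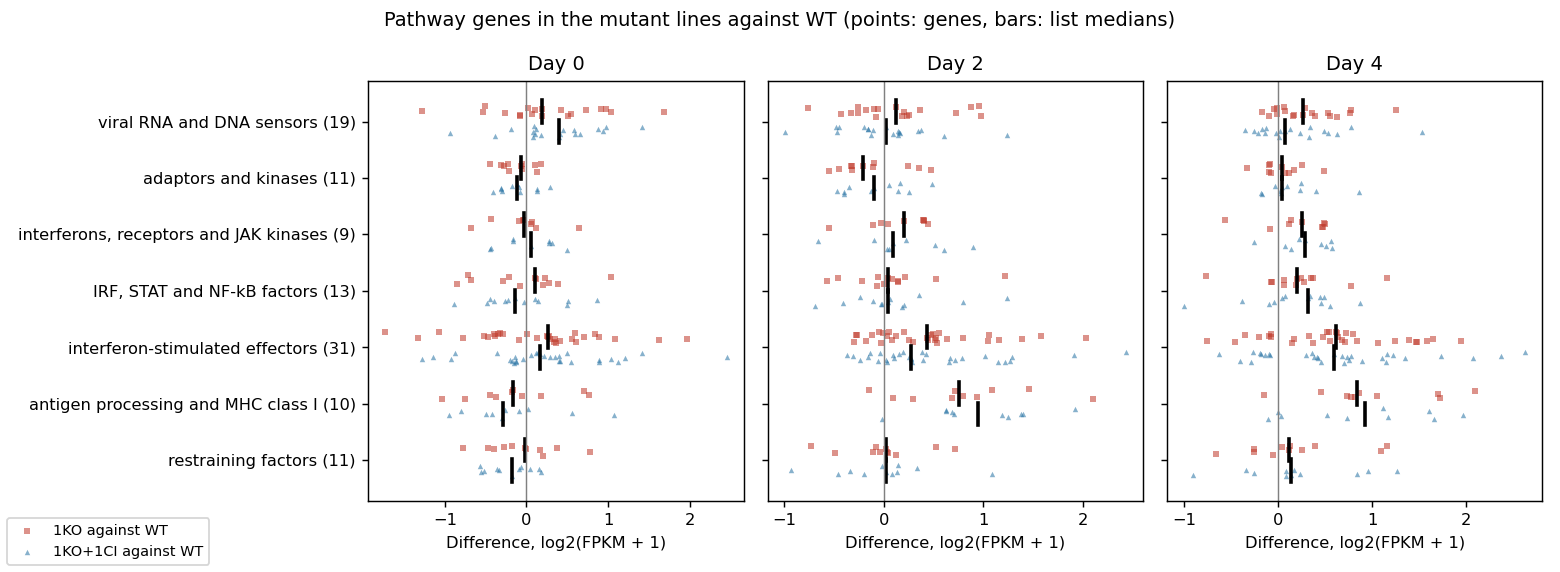
Difference from WT in log2(FPKM + 1) (horizontal axes) of each gene of the 7 pathway lists (rows, with the number of genes listed) on days 0, 2 and 4, for 1KO (squares) and 1KO+1CI cells (triangles). Black bars are list medians, and those of the effectors in 1KO were 0.26, 0.43 and 0.62 on the 3 days.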

How the data were processed

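RNA-seq of 9 mouse ESC libraries was used, 1 for each of 3 lines and days 0, 2 and 4. Per the study's methods, Trim Galore removed adapters, HISAT2 aligned the reads to mm10, and the authors obtained FPKM values through SAMtools and HOMER. Neither the tool versions nor the strand setting nor the treatment of multiply aligned reads is stated in the paper or labels. The gene table was used as deposited, in FPKM, with 15095 entries, of which 20 named by a date and 1 other without a symbol were left out (at most 0.117% of the FPKM of a library). IAPEz-int was read from the deposited FPKM of 426 copies. No value is 0.

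Differences are in log2(FPKM + 1). limma 3.58.1 (R 4.3.3) fitted line and day additively to all 15074 genes with a trend in the variance (4 residual degrees of freedom) and Benjamini-Hochberg adjustment. An adjusted p under 0.05 counted as a call. p-values measure the spread between these libraries, which are not replicates of a condition. The fit was tested on simulated data.

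Read counts were recovered from FPKM steps. Between 60.7% and 66.2% of values of the genes used lay within 0.1 of a whole read, so the depth is an estimate, and no count test was run. Intervals are exact (Clopper-Pearson) at 95%. Counts of Ifih1 and Irf7 are estimates from a mean transcript length.

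The 9 genes, the pathway lists and the markers were chosen with earlier results of these data known. From the lists, the text names the 5 highest and 5 lowest coefficients in each mutant against WT, the most abundant gene of a list, and every gene called for a line difference, the last chosen after the values were seen. Python 3.11.15 with pandas 2.3.3, numpy 2.4.6, scipy 1.17.1 and matplotlib 3.10.9 was used. Alternatives were pseudocounts of 0.1 and 0.01, a mean of at least 1 FPKM, TPM and median-ratio scaling, no trend, and leaving out each day.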

Additional observations from a re-analysis of the deposited data

Results flagged for a closer look

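Irf1 and Ddx58 were singled out because both mutant libraries stood below WT on 1 day and above it on another, each by more than the residual SD of the 9 genes (0.2055 on the log2 scale), a limit chosen after the values were seen. For Irf1 the differences of 1KO and 1KO+1CI from WT were −0.85 and −0.49 on day 0, 1.22 and 1.24 on day 2, and 1.16 and 0.87 on day 4. For Ddx58 they were −0.32 and −0.47 on day 2 and 0.53 and 0.53 on day 4. Each mutant library of a day is set against the same WT library, and the difference between days was not tested.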

How the results depend on the processing

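The 9 genes had 0 line calls under every alternative tried. Of their time calls, Mavs lost its fall to day 4 without day 2, and Ifih1 gained a fall to day 2 under pseudocounts of 0.1 (−1.94, adjusted p = 0.0324, limma) and 0.01 (−3.20, adjusted p = 0.0342) and without day 4. Leaving out 1 day, which removes 3 libraries and residual degrees of freedom, brought the calls over all genes from 281 to between 2 and 14 for 1KO against WT, from 593 to between 2 and 41 for 1KO+1CI against WT, from 1 to between 0 and 1 for 1KO+1CI against 1KO, and from 3554 to 2253 for day 4 against day 0. Pathway calls went from 8 and 10 in the mutant lines against WT to between 0 and 1 in each, and from 8 to 3 (1KO) without the variance trend; the cause of the last was not tested. The median day 4 difference of the 9 genes, 0.37 in 1KO, was 0.70 and 0.73 under pseudocounts of 0.1 and 0.01 and 0.12 among genes with a mean of at least 1 FPKM; that of 1KO+1CI cells, 0.23, was 0.73 under 0.01. The balance of calls over all genes also changed under some alternatives. The day 2 against day 0 calls, 1106 higher and 1222 lower, became 1592 and 1007 under TPM rescaling and 1103 and 1057 among genes with a mean of at least 1 FPKM. For 1KO+1CI against WT, 271 higher and 322 lower became 315 and 268 under TPM rescaling. Without day 0, 2 or 4 the calls were 9, 2 and 13 higher with 0, 0 and 1 lower for 1KO against WT (107 and 174 with all days), and 16, 2 and 33 higher with 1, 0 and 8 lower for 1KO+1CI against WT. Depth limits Ifih1, Irf7 and Isg15 on day 2, at 1 to 16 reads, and Irf7 on day 4, at 3 to 18 reads. Day is a term of the fit, so lines were compared within days, and with 1 library per condition there is no further replicate number to use as a block.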
